A study of Mus musculus with 40 samples.

Results

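The genes of the synaptic vesicle and release machinery were taken from the deposited expression table of mouse nucleus accumbens by their gene symbols, without regard to any measured value. They are 44 of 23322 gene names in the table. By role they are 15 calcium sensors and related C2-domain proteins (12 synaptotagmins, Doc2a, Doc2b and Rph3a), 5 proteins of SNARE fusion and SNARE recycling (Snap25, Stx1a, Vamp1, Vamp2 and Nsf), 3 complexins, 7 proteins of the vesicle membrane (Syp, Synpr, Syngr1, Syngr3, Sv2a, Sv2b and Sv2c), 3 synapsins, 3 Rab3 GTPases and 8 proteins of the active zone (Rims1, Rims2, Rims3, Unc13a, Unc13b, Unc13c, Bsn and Pclo). Each of the 44 symbols matched 1 row of the table, and each reached 1 TPM (each transcript's share of the library, corrected for transcript length and scaled to a sum of 1000000) in at least 5 libraries, the minimum for testing.

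RNA came from left and right accumbens punches of C57BL/6J mice, with 1 library per mouse and 8 groups of 5. The groups were ovariectomized females carrying estradiol and given cocaine or saline, ovariectomized females carrying placebo and given cocaine or saline, intact females given cocaine or saline, and intact males given cocaine or saline. Every mouse was handled for 3 days beforehand. The daily cocaine dose was 20 mg/kg on days 2 to 6 and 10 mg/kg on the first and the last treatment day, days 1 and 7. Tissue was collected after a withdrawal whose length is not given in the sources used here. Libraries are named below by group and mouse number. Ovariectomized mice carry the numbers 121 to 140 and intact mice the numbers 61 to 80, so ovariectomy and cohort cannot be told apart.

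Neurons release transmitter when a vesicle that is docked at the active zone fuses with the plasma membrane. The vesicle SNARE synaptobrevin (Vamp1, Vamp2) zips together with syntaxin (Stx1a) and SNAP-25 (Snap25) on the plasma membrane; Munc13 proteins (Unc13 genes) and RIM proteins prime this step, complexins hold and then promote it, and a synaptotagmin that binds calcium triggers it. Afterwards the ATPase NSF takes the spent SNARE complex apart. In the accumbens these proteins serve the terminals of local projection neurons and interneurons, whose messenger RNA lies in the punch, whereas the cell bodies of the dopamine and cortical inputs lie elsewhere.

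The punches carried the tissue's own markers: all 12 marker genes of accumbens projection neurons were at 1 TPM or more in every library, with a sum of 2455 to 8011 TPM, and Penk (enkephalin) was the highest. The 11 marker genes of cortical excitatory neurons summed to 13.9 to 947 TPM, and 4 of the 11 were at 0 in at least 1 library. Their mean on the log2(TPM + 0.5) scale, called the cortical score below, ran between 0.42 and 4.54. The share of TPM held by 83 ribosomal protein genes ran between 7.51% and 31.6% and was highest in estradiol cocaine 126 (31.6%), male cocaine 67 (25.1%), estradiol cocaine 134 (23.0%) and placebo saline 137 (19.4%), which are also the 4 libraries least correlated with the rest. The library labelled male cocaine 69 had 237 TPM of Xist and 0.318 TPM of Ddx3y, a pattern of the female libraries, and its description and title disagree on its group; it was kept under its title. The labels give 1 read number for all samples, and the depth of single libraries cannot be read from TPM values. In bulk punches fewer cells of a type and less RNA per cell cannot be told apart. Each p-value of the main fit sets a difference or slope against the spread between mice within groups, pooled over the 8 groups.

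Together the 44 genes held 0.254% to 1.21% of a library's TPM, with a median of 0.92%. Snap25, a plasma membrane SNARE, was the highest of the 44 at 1518 TPM as the mean of the 8 group means. Syp, a vesicle membrane protein, followed at 737 TPM, and then Vamp2, the main vesicle SNARE of the forebrain, at 729 TPM. In ovariectomized mice Snap25 averaged 1041 ± 569.8 TPM with estradiol and cocaine, 1662 ± 246 TPM with estradiol and saline, 1476 ± 419.7 TPM with placebo and cocaine and 1409 ± 435 TPM with placebo and saline (SD, n = 5 each). In intact mice it averaged 1811 ± 364 TPM in female cocaine mice and 1531 ± 298 TPM in female saline mice, and 1722 ± 649.5 TPM in male cocaine mice and 1491 ± 275 TPM in male saline mice (SD, n = 5 each). The estradiol cocaine mice had the lowest of the 8 means and the male cocaine mice the widest SD. The ranges of mean ± SD overlapped between all groups. Nsf averaged 381 TPM, Vamp1 76.4 TPM and Stx1a 59.0 TPM over the 8 groups. Vamp2 held 90.7% of the summed Vamp1 and Vamp2 level on average, with a range of 79.6% to 95.4% over libraries. Estradiol saline 122 had the highest Vamp1 share (20.4%) and male cocaine 67 the lowest (4.62%). Here and below, levels of different genes and shares within families rest on the length correction of the deposited values. Whether that correction suits libraries made with an AmpliSeq kit was not tested.

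**Figure D1:**
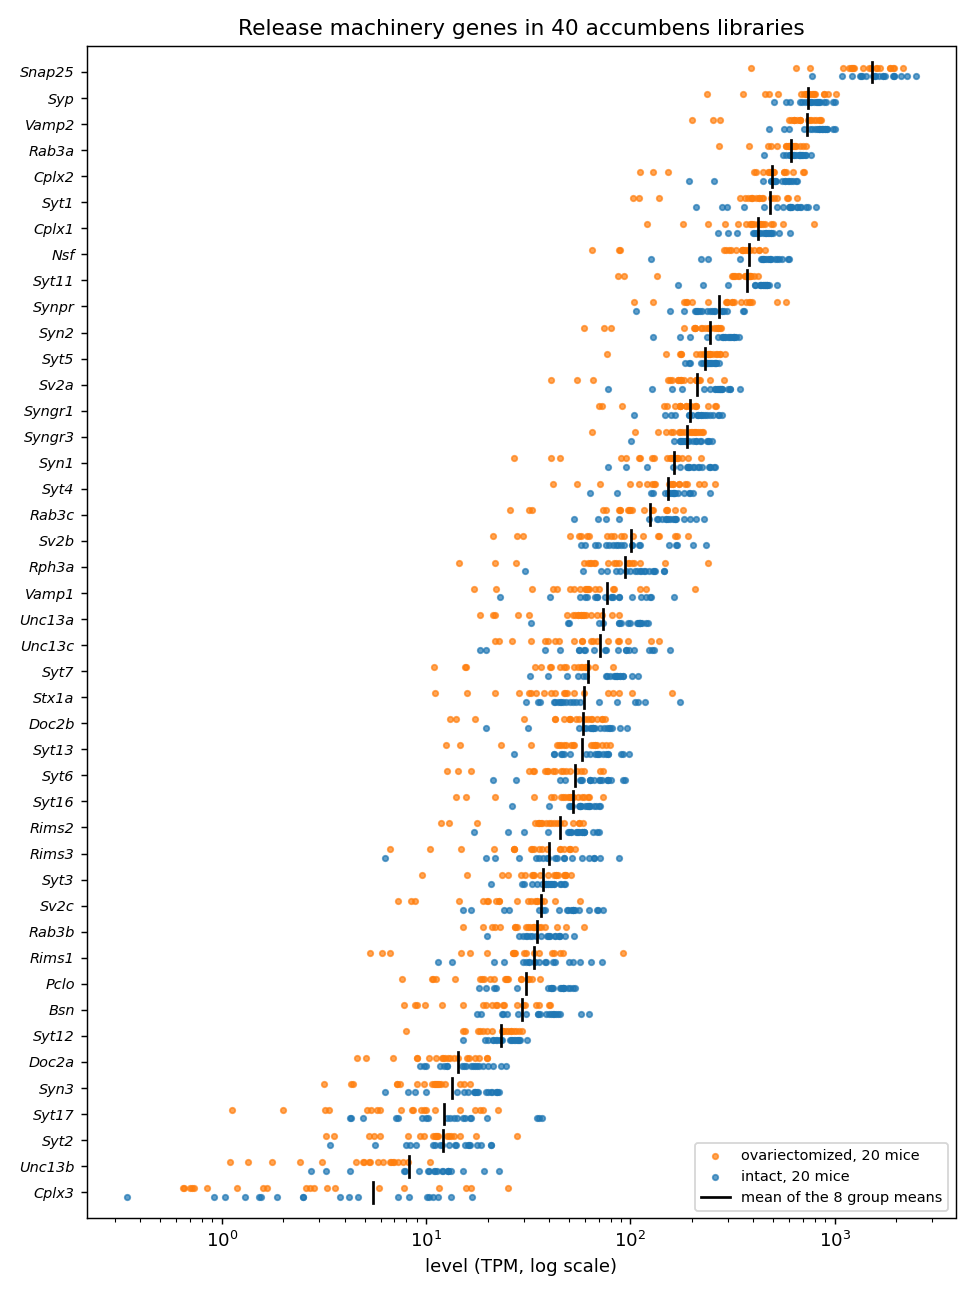
Level of each of the 44 genes in 40 libraries, in TPM on a log axis, ordered by the mean of the 8 group means (black line); points are mice, with ovariectomized mice above intact mice in each row. Snap25 leads at 1518 TPM and Cplx3 is last at 5.52 TPM, and a few ovariectomized libraries sit far to the left in nearly every row. Among the intact mice, male cocaine 67 does so in many rows.

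Among the calcium sensors, Syt1, the sensor for fast synchronous release in forebrain neurons, was the highest at 484 TPM. Syt11, a synaptotagmin whose C2 domains do not bind calcium, followed at 371 TPM, and Syt5 at 231 TPM. Syt1 held 30.3%, Syt11 23.7% and Syt5 16.1% of the level summed over the 12 synaptotagmins. Syt7, which serves asynchronous release and facilitation, averaged 62.0 TPM, and Syt2, the fast sensor best known from the hindbrain and from some inhibitory terminals, 12.1 TPM. Both Doc2 genes encode high-affinity calcium sensors linked to spontaneous release. Doc2b held 79.1% of the Doc2 level, with a range of 60.2% to 91.4%.

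The complexins were nearly all Cplx2 (52.9% of the summed complexin level on average) and Cplx1 (46.5%), at 491 and 421 TPM. Cplx3, best known from retinal ribbon synapses and from a layer of deep cortical neurons, was the lowest of the 44 genes at 5.52 TPM and the most variable, with a coefficient of variation of 106% over the 40 mice. It reached 1 TPM in 32 libraries, whereas the other 43 genes reached it in all 40. Cplx3 held at most 2.31% of the complexin level, in placebo saline 121.

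On the vesicle membrane, the tetraspan protein synaptophysin (Syp) averaged 737 TPM and its relative Synpr 272 TPM. Syngr1 and Syngr3, the synaptogyrins, divided their summed level almost evenly at 50.5% and 49.5%. Of the SV2 glycoproteins, Sv2a, the target of the antiepileptic drug levetiracetam, held 60.8% of the SV2 level, Sv2b 28.9% and Sv2c, the form enriched in the basal ganglia, 10.2%. The Sv2b share was the least steady of these, from 13.5% in placebo cocaine 125 up to 49.4% in placebo cocaine 135, which are mice of the same group. Synapsins tether vesicles to each other and to actin. Syn2 held 58.9%, Syn1 38.0% and Syn3 3.14% of the summed synapsin level.

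Rab3 GTPases sit on vesicles and bind RIM. Rab3a, at 611 TPM the fourth highest gene of the 44, held 79.8% of the Rab3 level and was the steadiest of all members, with a coefficient of variation of 15.7%. Rab3c averaged 125 TPM and Rab3b 34.9 TPM. In the active zone, where levels were lower, Munc13-1 (Unc13a) and Munc13-3 (Unc13c) held similar shares of the Unc13 level at 48.5% and 46.2%, with Unc13b at 5.28%. Those shares moved a great deal between mice: Unc13a ran between 28.4% and 68.9%, and Unc13c between 25.2% and 68.3%. Rims2 held 39.0%, Rims3 33.2% and Rims1 27.8% of the RIM level. The large scaffolds Pclo and Bsn averaged 31.0 and 29.6 TPM.

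Across the 8 groups, the estradiol cocaine group had the lowest mean for 41 of the 44 genes. The lowest library of the 40 was estradiol cocaine 126 for 21 genes and estradiol cocaine 134 for 20. These counts were not taken over all genes tested, so they cannot be read as particular to the release machinery. Of all genes tested, 78.7% were called lower with a higher ribosomal protein share within groups (limma, adjusted p under 0.05). That share was highest in estradiol cocaine 126, at 31.6%. Its part in the counts was not tested.

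The first question was how these genes stood in cocaine mice against saline mice of the same sex and surgery. No member passed an adjusted p of 0.05 in any of the 4 conditions (limma, Benjamini-Hochberg over the 15196 genes tested), and 0 of the 15196 genes passed in each (0%). At an unadjusted p under 0.05 there were 24 members and 6335 genes in ovariectomized estradiol mice, 0 members and 125 genes in ovariectomized placebo mice, 1 member and 145 genes in intact females, and 0 members and 155 genes in intact males.

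In ovariectomized estradiol mice the cocaine group lay lower in nearly every gene of the machinery, though none passed. Of the 44 members 43 were below 0, all but Cplx3, with a median log2 difference of -0.77 against -0.56 for all genes tested; the smallest adjusted p of a member was 0.0946. Rab3c had 32.0, 96.8, 25.7, 128 and 87.9 TPM in estradiol cocaine mice and 149, 88.8, 151, 180.4 and 150.3 TPM in estradiol saline mice, a log2 difference of -1.18 ± 0.38 (SE; adjusted p = 0.0946). Snap25 had 389.6, 1092, 648, 1872 and 1203 TPM in estradiol cocaine mice and 1856, 1369.5, 1476, 1658 and 1951 TPM in estradiol saline mice, a log2 difference of -0.86 ± 0.29 (SE; adjusted p = 0.0946). Vamp2 had 255, 610.5, 201, 676 and 673 TPM in estradiol cocaine mice and 807, 601, 792, 633 and 849.9 TPM in estradiol saline mice, a log2 difference of -0.77 ± 0.27 (SE; adjusted p = 0.0946). In each of these genes estradiol cocaine 126 and 134 lay far below the other 8 libraries, and at least 1 of the other 3 cocaine libraries lay inside the saline range: 136 for Snap25, 128 and 136 for Rab3c, and 128, 136 and 140 for Vamp2.

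The other named members were Rims2 (-0.99 ± 0.33), the complexins Cplx2 (-1.0 ± 0.36) and Cplx1 (-0.72 ± 0.28), the synapsin Syn2 (-0.83 ± 0.31), Vamp1 (-1.08 ± 0.41), Sv2c (-1.09 ± 0.42) and Unc13c (-1.12 ± 0.44, SE), all with an adjusted p of 0.0946. Estradiol cocaine 126 and 134 had ribosomal protein shares of 31.6% and 23.0%, against 10.5% to 11% in the other estradiol cocaine mice and 8.93% to 12.6% in the estradiol saline mice. Without the 4 least correlated libraries, which include these 2, the members' median was -0.04, that of all genes was -0.04 as well, and 20 members were above 0; Rab3c differed by -0.44 ± 0.27, Snap25 by -0.29 ± 0.21 and Vamp2 by -0.16 ± 0.15 (SE). With the ribosomal protein share in the model the members' median was -0.06. After centring each library on its median it was -0.16, against 0.05 for all genes, and 15 members were above 0.

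This comparison also turned on the 3 cocaine libraries with ordinary shares. Leaving out estradiol cocaine 128 gave 21 members lower at an adjusted p under 0.05, among 22.9% of all genes called lower; leaving out 136 gave 22 members among 38.6%, and leaving out 140 gave 27 members among 37.4%. Each of these leaves 126 and 134 as 2 of 4 cocaine libraries, and leaving out either of them gave 0 members. No member was among the 1.27% of genes whose groups did not overlap.

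In ovariectomized placebo mice, 38 members were above 0, with a median of 0.21 against 0.15 for all genes, and Syt17 (0.88 ± 0.54), Doc2a (0.44 ± 0.30) and Syt13 (0.47 ± 0.35, SE) had the smallest p-values, of 0.115, 0.154 and 0.196. As in estradiol mice, no member was among the genes without overlap, here 0.132% of those tested. With libraries centred on their medians, 23 members were above 0 and their median was 0.04. Without placebo saline 137 and the other 3 least correlated libraries, 20 were above 0 and the median was -0.01.

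In intact females, 34 members were above 0, with a median of 0.15 against 0.03 for all genes. Syt17, an atypical synaptotagmin without a transmembrane segment, was the member with an unadjusted p under 0.05. It had 16.4, 35.6, 34.8, 14.1 and 9.58 TPM in female cocaine mice and 4.25, 9.99, 4.89, 10.2 and 12.7 TPM in female saline mice. Female cocaine 71 and 72 stood far above the other 8 libraries, 2 more cocaine libraries lay just above all saline libraries, and the lowest cocaine library lay inside the saline range. The log2 difference was 1.28 ± 0.54 (SE; adjusted p = 1). Female cocaine 71 and 72 also had the highest cortical scores of the 10, 4.54 and 4.37, and with the cortical score in the model the difference was 0.62 ± 0.35 (SE). No member was among the 0.303% of genes without overlap.

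In intact males, 24 of 44 members were above 0 on the log2 scale, with a median difference of 0.03 for the members and -0.03 for all genes tested. The 3 smallest p-values belonged to Syngr3, Syt3 and Rab3a. Syngr3 had 100.5, 194, 186, 176 and 176 TPM in male cocaine mice and 189, 210.4, 238, 210.1 and 178 TPM in male saline mice. Male cocaine 67 was the lowest of the 10, 2 more cocaine libraries lay just below all saline libraries, and the remaining 2 lay inside the saline range. The log2 difference was -0.33 ± 0.23 (SE; adjusted p = 1). Syt3, a calcium-binding synaptotagmin found on postsynaptic membranes, differed by -0.29 ± 0.29, and Rab3a by -0.17 ± 0.18 (SE). Over the 44 members the lowest limit of any 95% interval was -1.33 and the highest 2.08. The members' SEs ran between 0.178 and 0.813. A difference of 1 log2 unit lay inside the intervals of some members and outside those of others. Across all genes tested, 0.375% did not overlap between the groups, and no member was among them. Without male cocaine 67 and the other 3 least correlated libraries 40 members were above 0 and their median was 0.32, and without the library labelled male cocaine 69 the counts were 18 members and a median of -0.03; 0 members passed in either.

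**Figure D2:**
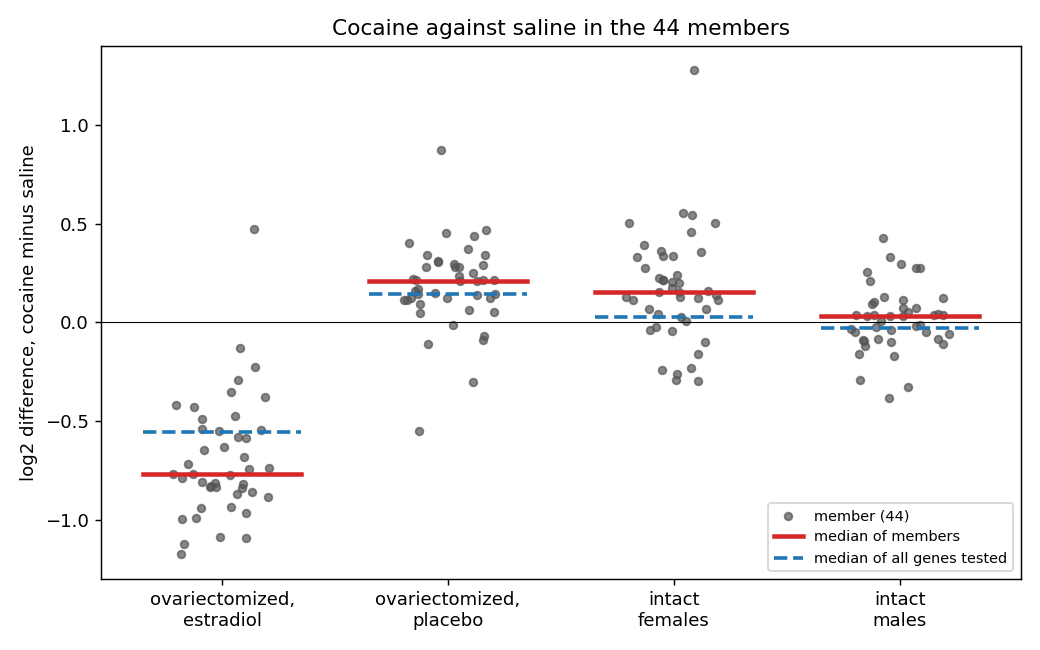
Log2 difference, cocaine minus saline, of the 44 members in each of 4 conditions; each point is a gene, red lines are the members' medians and dashed blue lines the medians of all 15196 genes tested. From left to right the members' medians are -0.77, 0.21, 0.15 and 0.03, and the medians of all genes -0.56, 0.15, 0.03 and -0.03.

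Averaged over the 4 conditions, 10 members were above 0, the members' median was -0.08 against -0.10 for all genes, and 0 members and 0 of 15196 genes (0%) passed; 0 members and 167 genes had an unadjusted p under 0.05. After centring, 29 members were above 0. Unc13c had the smallest p of the members (-0.41 ± 0.22, SE), followed by Syt2 (-0.32 ± 0.20) and Syt12 (-0.19 ± 0.12, SE).

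Whether the cocaine difference depends on sex was tested as an interaction in intact mice. No member passed, nor did any gene (0%), and 0 members and 101 genes had an unadjusted p under 0.05; 33 members were above 0, with a median of 0.12 against 0.05 for all genes. Syngr3 (0.53 ± 0.32), Syt17 (1.25 ± 0.77) and Rab3a (0.30 ± 0.25, SE) had the smallest p-values, of 0.109, 0.113 and 0.246. The 95% interval for Syngr3, -0.12 to 1.18, includes 0 and differences above 1. Without the library labelled male cocaine 69 the members' median was 0.14, and without the 4 least correlated libraries it was -0.16 with 14 members above 0.

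The same test for estradiol against placebo gave no member and no gene past the threshold (0%), with 19 members and 4753 genes at an unadjusted p under 0.05. The members' median was -0.92 against -0.71 for all genes, and 43 members were below 0. Syn2 differed by -1.23 ± 0.44, Vamp2 by -1.08 ± 0.38 and Rab3c by -1.48 ± 0.53 (SE; adjusted p = 0.156 each). Rims2, Syt13, Nsf, Syt4, Syt1, Syp and Sv2a followed, between -1.39 ± 0.58 for Nsf and -0.83 ± 0.35 for Syp (SE). This interaction holds the estradiol cocaine group; without the 4 least correlated libraries the members' median was -0.03 and 21 were above 0.

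Females were set against males within each treatment. In cocaine mice 39 members were above 0, with a median of 0.21 against 0.19 for all genes, and in saline mice 27, with a median of 0.07 against 0.13. No member passed in either, while 5 of 15196 genes did in each (0.0329% for cocaine mice and 0.0329% for saline mice). In cocaine mice 0 members and 207 genes had an unadjusted p under 0.05, and in saline mice 1 member and 214 genes. Unc13c, which encodes the Munc13 isoform best known from the cerebellum, had 56.1, 98.4, 131, 156 and 94.9 TPM in female saline mice and 18.3, 56.2, 104, 60.1 and 75.4 TPM in male saline mice. The 2 highest libraries were female and the lowest was male, the other 7 overlapped, and the log2 difference was 0.88 ± 0.44 (SE; adjusted p = 0.996). In cocaine mice Syngr3 (0.45 ± 0.23), Rims3 (0.89 ± 0.47) and Vamp1 (0.66 ± 0.41, SE) had the smallest p-values. With the library labelled male cocaine 69 left out, the members' median in cocaine mice was 0.24. Without the 4 least correlated libraries, of which male cocaine 67 is in this comparison, it was -0.05 and 15 members were above 0. With libraries centred on their medians 22 members were above 0 in cocaine mice and 18 in saline mice. Genes without overlap were 0.355% of those tested in cocaine mice and 0.592% in saline mice, with no member among them.

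Estradiol was set against placebo in ovariectomized mice. In cocaine mice 0 members were above 0, with a median of -0.65 against -0.49 for all genes; in saline mice 38 were, with a median of 0.31 against 0.23. After centring, 14 and 28 members were above 0 in cocaine mice and in saline mice. No member and no gene passed in either comparison (0% in each), with 13 members and 2385 genes at an unadjusted p under 0.05 in cocaine mice and 1 member and 377 genes in saline mice. Rab3c had 149, 88.8, 151, 180.4 and 150.3 TPM in estradiol saline mice and 73.6, 102, 117, 129 and 33.1 TPM in placebo saline mice. Its log2 difference was 0.77 ± 0.38 (SE; adjusted p = 0.737), and the groups overlapped. In cocaine mice the smallest p belonged to Vamp2, with 255, 610.5, 201, 676 and 673 TPM in estradiol cocaine mice and 853, 635, 679, 767 and 736 TPM in placebo cocaine mice, a log2 difference of -0.77 ± 0.27 (SE; adjusted p = 0.244). Again estradiol cocaine 126 and 134 were the 2 low libraries. Without the 4 least correlated libraries, 34 members were above 0 and their median was 0.07. Genes without overlap were 0.178% in cocaine mice and 1.04% in saline mice, with no member among them.

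Ovariectomized placebo mice were set against intact females within each treatment, with cohort confounded with surgery as stated above. Most members lay lower, a direction that turned in saline mice once each library was centred on its median: 40 of 44 were below 0 in cocaine mice (median -0.42, against -0.24 for all genes) and 42 of 44 in saline mice (median -0.39, against -0.37 for all genes). After centring, 18 members were above 0 in cocaine mice (median -0.12) and 23 in saline mice (median 0.05). No member passed the threshold in either, nor did any gene (0% in each); 5 members and 855 genes had an unadjusted p under 0.05 in cocaine mice, and 10 members and 2927 genes in saline mice. Unc13a, which encodes Munc13-1, the main priming protein of forebrain synapses, had 55.4, 69.0, 55.5, 60.5 and 21.6 TPM in placebo saline mice and 49.6, 112, 114, 108 and 111 TPM in intact female saline mice. In cocaine mice it had 87.9, 32.1, 53.8, 52.6 and 58.6 TPM with ovariectomy and placebo and 73.4, 119, 97.2, 87.6 and 112 TPM in intact females. With saline, intact female 64 was the sole intact library inside the ovariectomized range, but the placebo values other than 21.6 TPM lay inside the intact range. With cocaine, placebo 125 was the sole ovariectomized library inside the intact range, and the intact values of 73.4 and 87.6 TPM lay inside the ovariectomized range. The log2 differences were -0.95 ± 0.37 in saline mice (SE; adjusted p = 0.247) and -0.83 ± 0.37 in cocaine mice (SE; adjusted p = 0.696).

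Syn3, the minor synapsin, had 7.21, 11.2, 11.5, 11.8 and 4.37 TPM in placebo saline mice and 8.78, 20.1, 22.8, 21.9 and 19.6 TPM in intact female saline mice, a log2 difference of -0.99 ± 0.34 (SE; adjusted p = 0.247). Female saline 64 was again the low intact library. The other named members in saline mice were Pclo (-0.93 ± 0.35), Sv2c (-1.05 ± 0.42), Rab3c (-0.85 ± 0.38), Syn2 (-0.68 ± 0.31), Doc2b (-0.83 ± 0.38), Sv2a (-0.78 ± 0.37), Unc13c (-0.90 ± 0.44) and Syt6 (-0.75 ± 0.37, SE). In cocaine mice they were Unc13b (-1.05 ± 0.45), Pclo (-0.76 ± 0.35), Sv2c (-0.90 ± 0.42) and Bsn (-0.80 ± 0.39, SE). Genes whose groups did not overlap were 2.9% of those tested in saline mice, with no member, and 7.27% in cocaine mice, with 2 members, both lower. Those 2 were Syt11, with 365, 314, 341, 385 and 327 TPM in placebo cocaine mice and 431, 469, 407, 436 and 462 TPM in intact female cocaine mice, and Syn2, with 240.4, 206, 222, 268 and 225 TPM in placebo cocaine mice and 285, 323, 290.1, 300.5 and 323 TPM in intact female cocaine mice. Their log2 differences of -0.35 ± 0.33 and -0.39 ± 0.31 (SE) had unadjusted p-values of 0.296 and 0.211. These rest on the spread pooled over the 8 groups, not on that of these mice alone. Syt11 averaged 346 ± 28.6 TPM in placebo cocaine mice and 441 ± 24.7 TPM in intact female cocaine mice (SD). Syn2 averaged 232 ± 23.3 and 304 ± 17.9 TPM in the same groups (SD). In estradiol cocaine mice, outside this comparison, the SDs were 157 TPM for Syt11 and 94.9 TPM for Syn2.

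The average of the saline and the cocaine difference, a comparison added after the values were seen, set 10 ovariectomized placebo mice against 10 intact females. In it 0 members and 134 of 15196 genes (0.882%) passed, 19 members and 4955 genes had an unadjusted p under 0.05, and the members' median was -0.42 against -0.31 for all genes. Syn3 (-0.84 ± 0.24), Unc13a (-0.89 ± 0.26), Pclo (-0.84 ± 0.25) and Sv2c (-0.98 ± 0.30, SE) came nearest, with adjusted p-values of 0.0574, 0.0579, 0.0579 and 0.063. Rab3c (-0.78 ± 0.27), Unc13b (-0.92 ± 0.32), Unc13c (-0.80 ± 0.31), Syt6 (-0.68 ± 0.26), Syt7 (-0.69 ± 0.27) and Sv2a (-0.67 ± 0.26, SE) followed.

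Several of these sat at the edge of the threshold. Without the 4 least correlated libraries, 14 members were lower at an adjusted p under 0.05, among 25.7% of all genes called lower: Unc13a, Syn2, Syn3, Sv2a, Rab3c, Pclo, Sv2c, Syt7, Nsf, Unc13b, Syt6, Rims2, Vamp1 and Syt11. After centring each library on its median, 5 were lower, Syn3, Unc13a, Sv2c, Rab3c and Pclo, among 5.43% of all genes called lower. Leaving out female saline 64 gave 10 members lower, among 16.3% of all genes called lower; leaving out placebo cocaine 125 gave 4 among 5.73%, and leaving out placebo saline 123 gave 3 among 2.63%. With limma's array weights, which count libraries that stand apart for less, 17 members were lower in saline mice (39.5% of all genes lower) and 28 lower and 1 higher in cocaine mice (36.3% of all genes lower and 6% higher). With the ribosomal protein share in the model 0 members passed and the members' median was -0.11.

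Within groups, the members' levels followed the ribosomal protein share. Most genes tested did so too. Each library sums to 1000000 TPM, so a larger ribosomal protein share leaves less for all other genes together. A part of the negative slopes follows from this scaling, and its size was not tested. The slope of log2(TPM + 0.5) on the share was negative at an adjusted p under 0.05 for 43 of 44 members, where 78.7% of all genes were called lower and 7.23% higher; the members' median slope was -0.09 per percentage point, against -0.08 for all genes. Cplx3 was the exception, at -0.06 ± 0.05 (SE, adjusted p = 0.231). Nsf, which takes SNARE complexes apart, had 87.8, 364, 65.2, 424 and 355 TPM in estradiol cocaine 126, 128, 134, 136 and 140, whose shares were 31.6%, 10.9%, 23.0%, 10.5% and 11%. Both libraries with high shares lay far below the other 3. Rims1 (-0.14 ± 0.02), Nsf (-0.13 ± 0.01), Unc13b (-0.12 ± 0.02), Rph3a (-0.12 ± 0.01) and Syt1 (-0.12 ± 0.01) had the steepest negative slopes. Syt5 (-0.03 ± 0.01), Rab3b (-0.04 ± 0.01), Rab3a (-0.04 ± 0.01), Synpr (-0.05 ± 0.02) and Syngr3 (-0.05 ± 0.01, SE) had the shallowest.

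After centring each library on its median, 14 members had a negative slope at an adjusted p under 0.05 (22.5% of all genes were lower) and 6 had a positive one (29.7% of all genes were higher). The 14 were Nsf, Rims1, Syt1, Unc13b, Rph3a, Syn1, Cplx2, Doc2b, Rab3c, Rims2, Sv2a, Syt11, Syt6 and Unc13a. The 6 were Syt5, Rab3a, Rab3b, Syngr3, Syp and Syt12, so among vesicle proteins Rab3a and Rab3c moved apart within libraries. In estradiol cocaine 134 Rab3a held 90.3% of the Rab3 level and Rab3c 6.09%, against 67.8% and 26.9% in female cocaine 79. Without the 4 least correlated libraries, and with no centring, 28 members had a negative slope at an adjusted p under 0.05, where 51% of all genes had one. In ovariectomized mice alone 43 members did (73.1% of all genes), and in intact mice alone 41 (73.1% of all genes). As a description, the slope went with the length of the longest coding transcript, longer genes having steeper negative slopes: Spearman's rho was -0.55 over the 44 members and -0.69 over 13519 genes, all measured in the same libraries.

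**Figure D3:**
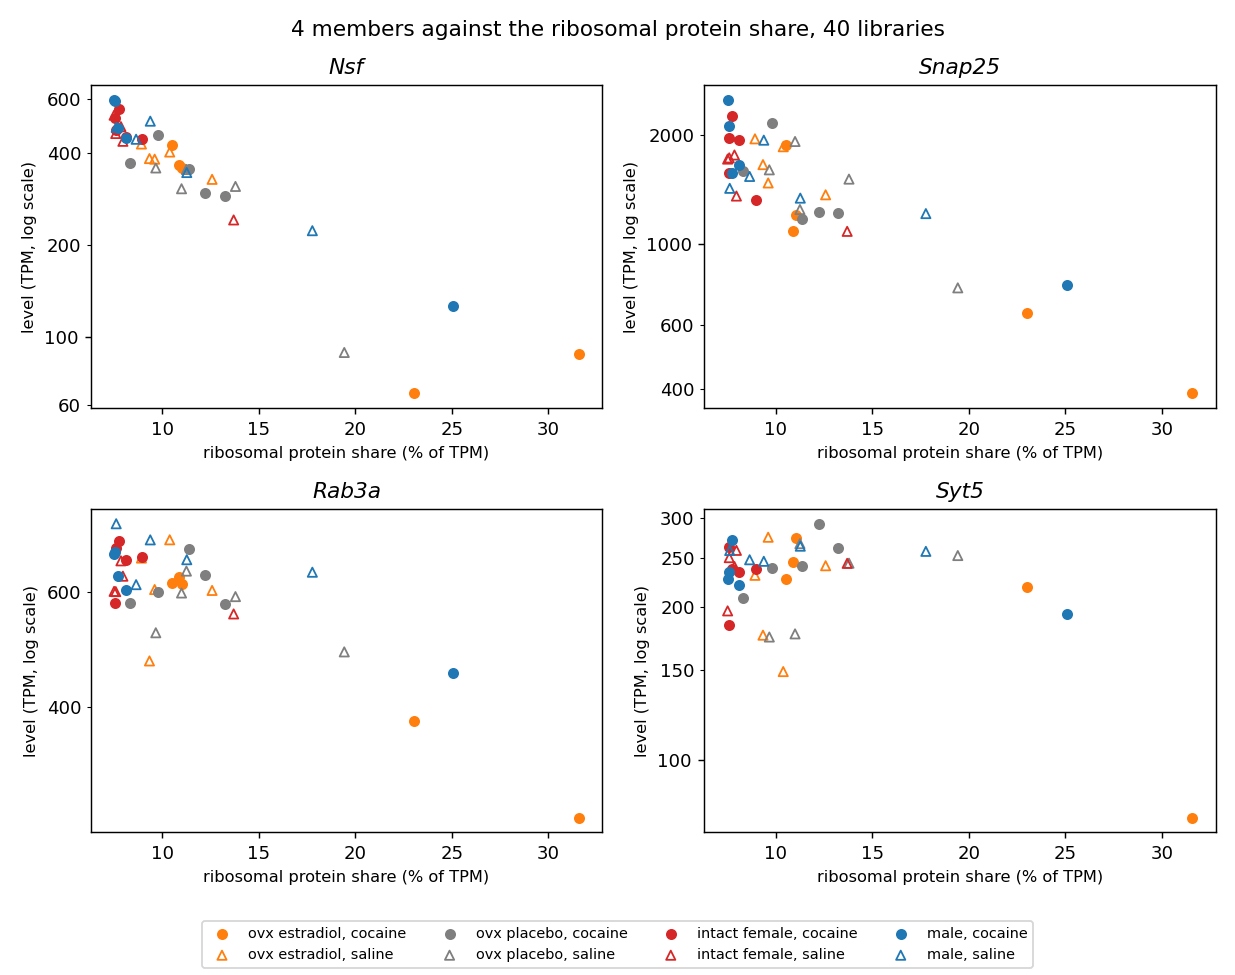
Level in TPM (log axis) of Nsf, Snap25, Rab3a and Syt5 against the ribosomal protein share of the library in percent; filled circles are cocaine mice, open triangles saline mice, and colours are sex and surgery. Nsf falls steeply between 7.51% and 31.6%, whereas Rab3a and Syt5 differ less between low and high shares.

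A second measure, the cortical score, set a small group of members apart from the rest. With the 8 group means and the ribosomal protein share in the model, 15 of 44 members were higher with a higher score at an adjusted p under 0.05, where 4.11% of all genes were, and 1 was lower, where 2.43% of all genes were. The members' median slope was 0.07 log2 units per unit of score, against -0.01 for all genes. None of the 44 is among the 11 markers that make up the score. The part of cortical tissue in these slopes was not tested.

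Shown here are the promoters of the complexin and the syntaxin with the largest positive slopes and of the Munc13 gene with a negative one. A link between these sequences and the slopes was not tested. The GC content of these promoters was 66.3% for Stx1a, 62.7% for Cplx3 and 59.3% for Unc13c. They run from 250 bases before to 50 bases after the gene start and come from RefSeq (build GRCm38.p6), with each match to the GC box GGGCGG on either strand (CCGCCC on the other) in capitals. Stx1a is at chr5:135023232-135023531 on the plus strand and holds 3 GC boxes, Cplx3 at chr9:57606232-57606531 on the minus strand holds 0, and Unc13c at chr9:73968988-73969287 on the minus strand holds 1.
Stx1a: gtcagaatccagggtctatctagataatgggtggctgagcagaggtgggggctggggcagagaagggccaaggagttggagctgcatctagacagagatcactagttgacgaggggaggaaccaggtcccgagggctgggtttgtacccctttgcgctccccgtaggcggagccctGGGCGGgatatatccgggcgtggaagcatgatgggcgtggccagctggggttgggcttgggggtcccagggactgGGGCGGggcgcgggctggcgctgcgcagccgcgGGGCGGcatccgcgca
Cplx3: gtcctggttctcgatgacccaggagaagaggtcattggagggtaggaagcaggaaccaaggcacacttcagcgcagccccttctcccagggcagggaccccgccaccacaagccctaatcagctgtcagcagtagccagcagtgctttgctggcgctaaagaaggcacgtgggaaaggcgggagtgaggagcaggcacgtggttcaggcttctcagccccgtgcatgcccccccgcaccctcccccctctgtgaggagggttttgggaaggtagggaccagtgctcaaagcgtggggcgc
Unc13c: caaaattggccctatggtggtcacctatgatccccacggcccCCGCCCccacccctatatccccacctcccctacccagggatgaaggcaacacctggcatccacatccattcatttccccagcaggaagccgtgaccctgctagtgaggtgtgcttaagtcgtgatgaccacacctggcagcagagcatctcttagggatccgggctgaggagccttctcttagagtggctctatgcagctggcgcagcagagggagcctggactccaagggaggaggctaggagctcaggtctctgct

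RefSeq gave 43 promoters for 31 of the 44 members. A GC box was in 28 of the 43 (65.1%), against 35.7% of 32851 mouse promoters of the same 300 bases; a CRE (TGACGTCA) was in 1 (Syn1, 2.33% against 1.79%) and the E-box CAGATG on either strand in 4 (9.30% against 17.2%). The median GC content was 62.3% in the members' promoters and 52.7% in all. These are matches of letters and no more.

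Cplx3 had the largest slope, 1.14 ± 0.07 (SE, adjusted p = 5.45e-15). In placebo cocaine mice it had 1.67, 0.651, 0.719, 16.6 and 11.6 TPM at scores of 1.69, 1.28, 1.33, 3.97 and 3.99, and in placebo saline mice 25, 5.89, 2.83, 1.59 and 3.26 TPM at scores of 4.48, 2.88, 2.24, 1.39 and 1.06. The high libraries of both groups were those with high scores, and the lowest score of the placebo saline mice did not have the lowest Cplx3.

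Stx1a, the syntaxin of the neuronal SNARE complex, followed at 0.54 ± 0.04 (SE, adjusted p = 3.14e-13). It had 42.1, 175, 109, 36.3 and 45.2 TPM in female cocaine mice at scores of 1.43, 4.54, 4.37, 2.18 and 1.97, and 35.2, 46.9, 45.6, 44.3 and 56.9 TPM in female saline mice at scores of 1.00, 1.46, 2.04, 1.76 and 2.96. Female cocaine 71 and 72 stood above all others, and the rest of both groups overlapped. Across the 40 libraries Stx1a ran between 11 and 175 TPM. Next came Syt17 (0.53 ± 0.07), Sv2b (0.40 ± 0.05), the SV2 form most abundant in cortex and hippocampus, and the active zone protein Rims1 (0.39 ± 0.05, SE). Sv2b had 21.2, 61.2, 29.9, 170.0 and 82.9 TPM in estradiol cocaine mice at scores of 0.78, 2.12, 0.42, 4.09 and 2.48, and 56.1, 57.1, 93.4, 104 and 138 TPM in estradiol saline mice at scores of 3.04, 1.12, 1.05, 1.5 and 3.75; its highest library in each group was the one with the highest score.

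The remaining 10 with a positive slope were Rph3a, Unc13b, Bsn, Syt13, Syn1, Snap25, Syt7, Doc2a, Rab3b and Syt1, with slopes between 0.14 ± 0.04 for Syt1 and 0.24 ± 0.05 for Rph3a (SE). Unc13c went the other way, at -0.30 ± 0.06 (SE, adjusted p = 0.00153). It had 124, 66.2, 38.2, 128 and 94.8 TPM in female cocaine mice at the scores given above and 56.1, 98.4, 131, 156 and 94.9 TPM in female saline mice, so that the female cocaine libraries with the highest Stx1a had the lowest Unc13c of their group. In paralog terms Rims1 held 56.7% of the RIM level in placebo saline 121, the library with a score of 4.48, against 16.0% in estradiol saline 124, with a score of 1.12.

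Members without a slope past the threshold included Vamp2 (0.09 ± 0.03, adjusted p = 0.124), Rab3a (0.04 ± 0.03, adjusted p = 0.577), Syn2 (0.04 ± 0.04, adjusted p = 0.65) and Sv2c (-0.07 ± 0.07, adjusted p = 0.709; SE throughout). In ovariectomized mice alone 5 were higher, Cplx3, Syt17, Stx1a, Rims1 and Rph3a, and 0 lower, where 1.17% of all genes were higher and 0.191% lower. In intact mice alone 10 were higher and 2, Unc13c and Rims3, lower, where 2.46% and 1.38% of all genes were. Without the 4 least correlated libraries 16 were higher and 4, Unc13c, Rims3, Doc2b and Syt6, lower, where 4.53% and 5.61% of all genes were. Placebo saline 121 had the highest sum of 7 oligodendrocyte marker genes, 18279 TPM against a median of 6496 TPM over the libraries; without it 13 members were higher and 1 lower, where 3.26% and 1.33% of all genes were.

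**Figure D4:**
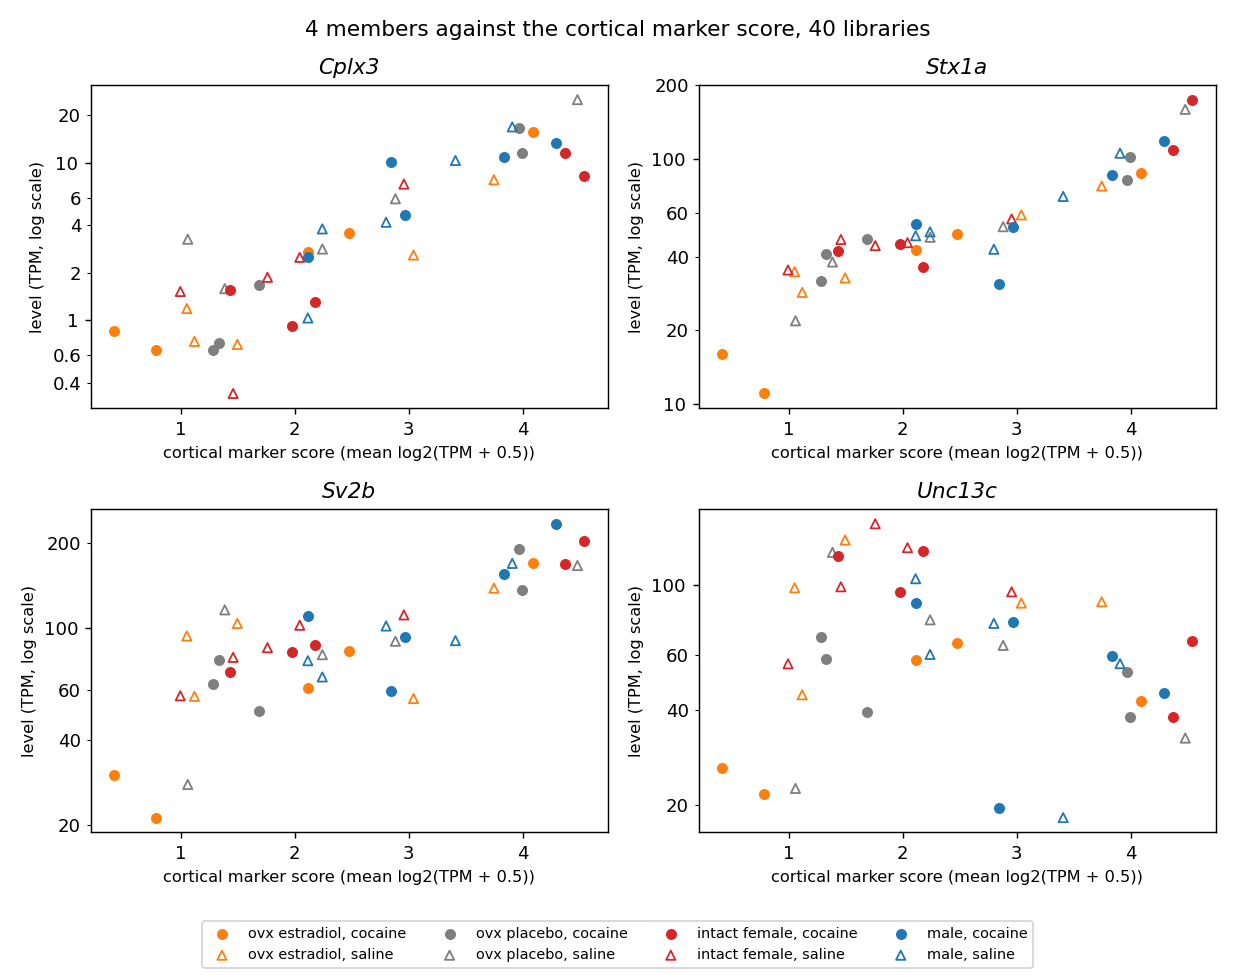
Level in TPM (log axis) of Cplx3, Stx1a, Sv2b and Unc13c against the cortical score, the mean log2(TPM + 0.5) of 11 cortical excitatory marker genes; filled circles are cocaine mice, open triangles saline mice, and colours are sex and surgery. Cplx3, Stx1a and Sv2b are high in the libraries with scores near 4, where Unc13c is below its highest levels.

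**Figure D5:**
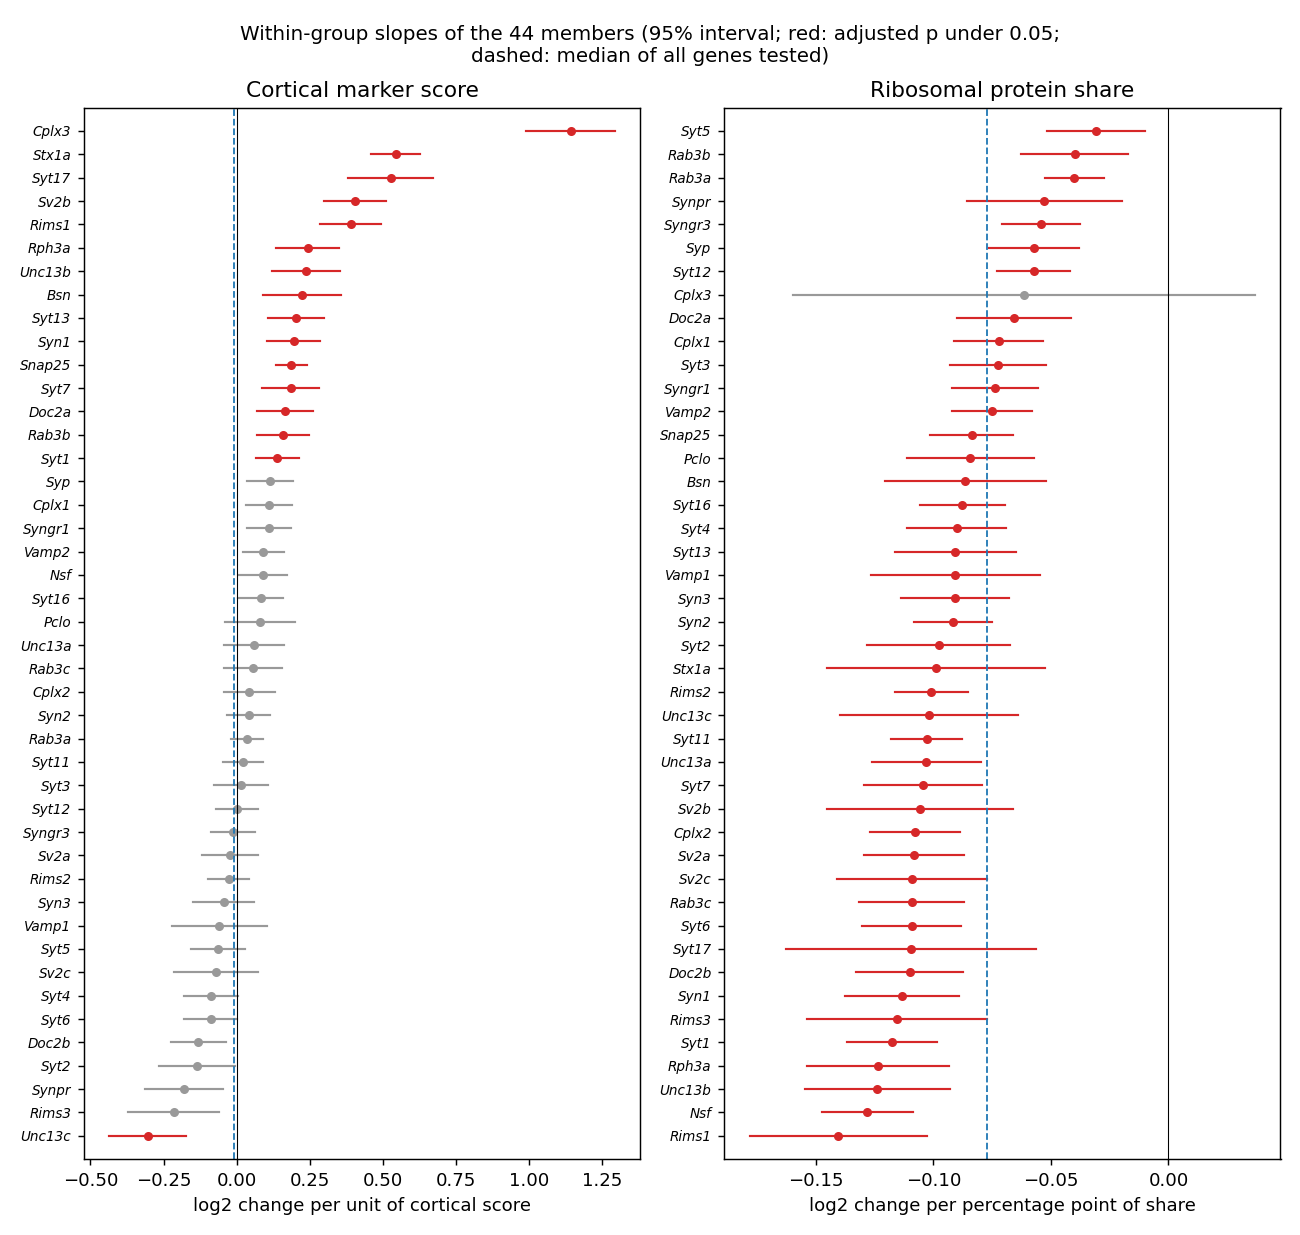
Within-group slopes of the 44 members with 95% intervals, in log2 units per unit of cortical score (left) and per percentage point of ribosomal protein share (right); red marks an adjusted p under 0.05 and the dashed line the median of all genes tested. On the left 15 of the red genes are above 0 and Unc13c is below it; on the right 43 red genes are below 0.

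Other genes of vesicle release were followed through a list of 48 companions, of which 45 were tested. None passed the threshold in any of the 14 comparisons between groups. On the ribosomal protein share 43 were lower and 1, Sncg (gamma-synuclein), higher, with a median slope of -0.10. Of all genes tested, 78.7% were lower and 7.23% higher on that share. The cortical score gave 10 higher and 1 lower, where 4.11% of all genes were higher and 2.43% lower. The companions' median slope was 0.03 against 0.07 for the 44 members. The 10 were Cadps2 (0.29 ± 0.07) and Cadps (0.15 ± 0.05), which encode the dense-core vesicle priming proteins CAPS2 and CAPS1, Rims4 (0.19 ± 0.05), the synuclein Sncb (0.19 ± 0.05), the NSF attachment protein gene Napb (0.18 ± 0.04), Ppfia3 (0.17 ± 0.05), Stxbp5l (0.17 ± 0.05), Rab3d (0.15 ± 0.04), and the endocytic genes Amph (0.14 ± 0.03) and Sh3gl2 (0.14 ± 0.03, SE). The 1 lower was Syt10 (-0.23 ± 0.07, SE).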

How the data were processed

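Barcoded libraries came from an AmpliSeq kit and shared 1 sequencing lane, per the labels, which print the reads of each sample as 9.4 + 4.7 in units of 1000000 and do not explain the plus sign. The deposited table is named FPKM, but each of the authors' 40 columns sums to 1000000, so the deposited values are TPM; that step is not described in the sources used here, and no depth of a single library or counting interval can be derived from them. The tools named in the submitters' processing notes are Cuffdiff 2.2.0 and Cufflinks 2.2.0, limma, DESeq2, TopHat2 2.0.9 and Bowtie2 2.1.0.0, beside the build mm10; their roles are not given. Groups came from sample titles.

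From 23349 entries, 27 that carry a date for a name were left out. Values were taken as log2(TPM + 0.5), on which the changes of low genes are understated, and the 15196 genes reaching 1 TPM in 5 or more libraries were fitted with limma 3.58.1 (trend and robust) in R 4.3.3 as 8 group means. P-values were adjusted by the Benjamini-Hochberg method over all genes tested, with a threshold of 0.05; all comparisons share 1 estimate of spread, and some share control mice. Slopes added the ribosomal protein share, or that share and the cortical score, to the group means. The procedure was tested on simulated data. Lengths came from GENCODE M21, promoters from RefSeq. The members, gene lists and tests were chosen with earlier results of these data known. Named members were those past the threshold or, up to 10, with the smallest unadjusted p under 0.05, or otherwise the 3 smallest, and for slopes the 5 highest and 5 lowest past it; Syt11 and Syn2 in the ovariectomy comparison and the 4 members given as lacking a cortical slope were chosen after their values were seen. Alternatives were other pseudocounts, filters, scalings, covariates, array weights, and leaving out libraries. The covariate fits with the cortical score, the averaged ovariectomy comparison and the slopes leaving out 1 library were added after seeing the data.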

Additional observations from a re-analysis of the deposited data

Results flagged for a closer look

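Of 352 sets of 5 values (44 genes in 8 groups), 34 held 1 library far from the other 4, with its gap to the nearest library above 0.71 of the group's range. Chance alone marks about 1 set in 20, and genes of 1 library are not independent of each other. Most of the 34 fell in a few libraries.

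Male cocaine 67 was the low library for 9 genes: Syt3 (20.8 TPM), Syt4 (63.2 TPM), Syt11 (172 TPM), Syngr3 (100.5 TPM), Sv2a (78.1 TPM), Syn2 (129 TPM), Syn3 (6.28 TPM), Rab3c (53.2 TPM) and Rims2 (17.2 TPM). Its ribosomal protein share was 25.1%. Placebo saline 137, with a share of 19.4%, was low for the fast calcium sensor Syt1 (139 TPM), Syt11 (135 TPM), Nsf (88.8 TPM), Cplx2 (153 TPM) and Unc13a (21.6 TPM). Estradiol cocaine 126, with a share of 31.6%, was low for Syt5 (76.9 TPM), the synaptotagmin with the shallowest slope on that share.

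Female saline 64, with a share of 13.7%, was low for 8 genes: Syt7 (39.7 TPM), Syt11 (301 TPM), Syp (576 TPM), Sv2a (159.8 TPM), Syn1 (95.7 TPM), Syn3 (8.78 TPM), Unc13a (49.6 TPM) and Unc13b (2.75 TPM). The Unc13b value lay below 10.2 TPM, the nearest of the other 4 female saline libraries.

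The high libraries were all placebo or estradiol mice. Placebo saline 121, with a cortical score of 4.48 and an oligodendrocyte marker sum of 18279 TPM against a median of 6496 TPM over the libraries, was high for Rph3a (240.3 TPM), Stx1a (159.7 TPM), Cplx3 (25 TPM) and Rims1 (91.6 TPM). Cplx3 was also high in estradiol cocaine 136 (15.6 TPM, score 4.09) and in estradiol saline 138 (7.77 TPM, score 3.75). Placebo cocaine 135, with a score of 3.97, was high for Syt16 (73.7 TPM) and Rab3c (166 TPM). Placebo cocaine 125 was high for Vamp1 (112 TPM) and Sv2a (288 TPM), and estradiol saline 122 for Syt2 (27.9 TPM). The part of the ribosomal protein share, the cortical score and the oligodendrocyte markers in these values was not tested.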

How the results depend on the processing

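Counts of members past an adjusted p of 0.05 (limma) rested on single libraries and settings in the following cases, and the cause was not tested. In ovariectomized placebo mice against intact females, array weights gave 17 members with saline, where 39.5% of all genes were lower. They gave 29 with cocaine, where 36.3% of all genes were lower and 6% higher. They gave 28 in the average of saline and cocaine, and each main fit gave 0. That average also gave 3 at a pseudocount of 1, 5 after median centring and 9 after quantile normalization. It gave 14 without the 4 least correlated libraries and 7 with the cortical score as a covariate. Counts over all genes for these settings of the average are given below. Leaving out 1 library gave 0 to 10 members in that average and 0 to 27 for cocaine in estradiol mice. It gave 41 to 43 for the ribosomal share slope, 14 to 19 for the cortical slope, and 0 elsewhere. Over all genes, in the same order, it gave 0 to 2709, 0 to 6105, 12582 to 13127 and 698 to 1191. The ribosomal share slope gave 28 without the 4 libraries, where 51% of all genes were lower. After centring it gave 20, where 22.5% of all genes were lower and 29.7% higher. The cortical slope gave 5 in ovariectomized mice alone, where 1.17% of all genes were higher and 0.191% lower.

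Among the members named in each comparison, the following changed sign. With array weights: Syt17, cocaine in placebo mice, -0.10; Syt13 and Syp, estradiol against placebo response, 0.162 and 0.00587; Vamp1, females against males with cocaine, -0.0109; and, estradiol against placebo with cocaine, Syt13 0.24, Doc2a 0.13, Syn2 0.0833, Syt16 0.0497, Syp 0.156, Syt11 0.15 and Syngr1 0.10. Without the 4 libraries: Syn2 0.0502, Syt16 0.0146, Syp 0.0361 and Syt11 0.11 in that last comparison, and ribosomal slopes of 0.0072 for Syngr3 and 0.024 for Syt5. After centring: ribosomal slopes of 0.0254 for Syngr3, 0.0269 for Synpr, 0.0396 for Rab3a, 0.0397 for Rab3b and 0.0487 for Syt5; Syp and Syt12, not named there, turned too. Of the other values of named members, apart from those leaving out 1 library in turn, 980 kept direction and side of the threshold, 54 moved past it and 13, all slopes, no longer passed.

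Counts over all genes moved most for the averaged ovariectomy comparison: 134 genes passed, against 27 and 458 at pseudocounts of 0.1 and 1, 87 without a filter, 21 at a mean of at least 5 TPM, 1331 centred, 1852 quantile normalized, 227 with the ribosomal share as covariate, 1433 with the cortical score, 9115 with array weights, 4311 without the 4 libraries, 75 without the library labelled male cocaine 69, and 0 to 2709 leaving out 1 library. Its parts gave 6802 genes (saline) and 6431 (cocaine) with array weights and 0 otherwise, save 1 with saline and no filter. Cocaine in estradiol mice gave 0 to 6105 genes leaving out 1 library, in males 8 and in females 23 with array weights, and in males up to 1 leaving out a library; each interaction gave 1 with array weights; without a filter 1 gene passed for cocaine in placebo mice and 1 for estradiol with saline. Females against males gave 18 (saline) and 14 (cocaine) with array weights against 5 each, 3 each at a mean of at least 5 TPM, and 0 with cocaine among intact mice alone. The ribosomal slope was called in 13064 genes, against 7926 centred; the cortical slope in 994, against 1542 without the 4 libraries, 583 in intact and 207 in ovariectomized mice. Centring moved the median of all genes by over 0.1 in most comparisons, most for estradiol against placebo response, with -0.71 as deposited and 0.07 centred. Ordering genes by the median moved none by more than 5 places.

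No paired analysis was possible because the replicate numbers are mouse numbers and the groups share none. With the run of mouse numbers as a covariate, 0 members passed in every comparison other than the ovariectomy ones, where runs and groups cannot be told apart. TPM holds no counts, so what depth limits cannot be given.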
